A study of Sus scrofa with 16 samples.

Results

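The proteasome genes described here were the entries of a gene count table whose symbol is PSMA, PSMB, PSMC, PSMD, PSME or PSMF followed by a number, without PSMB8, PSMB9 and PSMB10. They numbered 41 of 29552 entries with a gene symbol, and 39 of them passed the filter on low counts and were tested among 14530 genes. The counts came from 16 polyA RNA libraries of interstitial cells from pig aortic valves, which build and maintain the leaflet matrix, taken from animals aged 5 to 6 months. There were 4 groups of 4 biological replicates each: female plastic, female gel, male plastic and male gel. Plastic is tissue culture plastic, and gel is a poly(ethylene glycol)-norbornene hydrogel with a modulus of about 5.8 kPa. All 16 cultures had 1% serum and were sampled after 48 hours. The submitters regard cells on gel as quiescent fibroblasts and cells on plastic as myofibroblasts. The labels name no genetic change in any group, and whether plastic and gel libraries with one number came from one animal is not stated.

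The proteasome is the protease that degrades most short-lived and misfolded proteins of the cytosol and nucleus after these have been tagged with ubiquitin. Its core particle, called 20S, is a barrel of outer alpha rings, which control entry, and inner beta rings, which hold the active sites. A regulatory particle, called 19S, caps the core: its ATPases unfold the substrate, and its other subunits bind ubiquitin, remove it and hold the parts together. Other caps can take its place, among them the ring made of the PSME1 and PSME2 proteins, which interferon-gamma induces and which opens the core without ubiquitin or ATP. In fibroblast-like cells the proteasome sets the lifetime of signalling proteins such as beta-catenin and the inhibitors of NF-kappa-B. The roles given below are those known from human, mouse and yeast proteasomes.

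Total counts ran from 16897547 to 27436151 per library. Male gel 2 was the shallowest library, and its proteasome genes scattered most: their log2 levels deviated from the group mean with an SD of 0.222. Female plastic 4 followed with 0.169, against 0.06 to 0.121 in the other 14 libraries. Counts of changed genes are therefore also given without male gel 2 and female plastic 4. Both were picked by the scatter of the proteasome genes themselves, so calls gained without them are not independent support. A library outside a comparison still affects its p through the shared estimate of the spread. Fibroblast markers were high in all 16 libraries, with summed levels of 37370 to 54440 CPM, the read count scaled to library size with edgeR's TMM factors; of the 8 markers, 1 rose and 2 fell on plastic in female cells, and 3 rose and 2 fell in male cells. The T cell gene CD3E and the cardiac muscle gene TNNT2 were at 0 reads in all 16 libraries, and the leukocyte gene PTPRC had 1 read in 1 library. Some other genes of these lists were read in only part of the libraries, such as CSF1R in 7 and MYH7 in 4. Others were read in all 16 libraries. The leukocyte genes CD14 and LAPTM5 reached 11.29 and 33.71 CPM, and the cardiac muscle gene TNNI3 reached 2.054 CPM.

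On plastic, the proteasome genes that changed were all lower than on gel, in both sexes. By edgeR, in female cells 13 of the 39 tested genes fell and 0 rose, where 11.3% of all tested genes fell and 12.7% rose. In male cells 13 of 39 fell and 0 rose, where 12.9% of all tested genes fell and 12.9% rose. A call is a Benjamini-Hochberg adjusted p under 0.05 in edgeR's quasi-likelihood F test over all 14530 genes. No proteasome gene rose by DESeq2 or limma-voom either, and by these tests 0 were higher on plastic at an unadjusted p under 0.05. With the replicate number as a block 1 was, PSME4 in male cells. PSME4 was also higher at that level in male cells without male gel 4, and without male 4, female 1 and female 4 on both surfaces. By edgeR 18 of 39 were lower at that level in female and 16 of 39 in male cells. Over all 14530 tested genes, 2602 and 2877 were lower at that level. Counted by sign alone, 37 of 39 proteasome genes had a negative log2 change in female cells and 38 of 39 in male cells, against 53.7% and 53.3% of all tested genes; by RLE scaling or DESeq2 it was 37 and 36 of 39. The changes were mostly small: the median log2 change of the 39 genes was -0.19 in female and -0.23 in male cells, against -0.04 and -0.03 over all tested genes. In a bulk library, fewer cells of a type that expresses a gene and less of its RNA per cell cannot be told apart.

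Of the 18 genes that fell in at least 1 sex, 8 fell in both: PSMA1, PSMA3, PSMA5, PSMA6, PSMD3, PSMD11, PSME1 and PSME2. These are 61.5% of the female and 61.5% of the male list, and the 2 comparisons share no library, though they share the estimate of the spread. Over all tested genes, 7.27% fell in both sexes, which is 64.5% of all genes that fell in female and 56.4% of all that fell in male cells, so the overlap of the proteasome genes lay near that of all genes. In female cells only, the threshold was passed by PSMA2, PSMB1, PSMB4, PSMB5 and PSMD5, and in male cells only by PSMA4, PSMC6, PSMD4, PSMD7 and PSMD12. For none of these was the change shown to differ between the sexes, as given below. The other 21 tested genes passed in neither sex. PSME1, PSME2 and PSMA6 passed in both sexes under every alternative tried, including a test against a fold of 1.2, which called 4 of 39 genes in female cells (5.97% of all tested genes) and 3 of 39 in male cells (6.63%). The plastic libraries all lay below all gel libraries for 14 of 39 genes in female cells, as they did for 14.0% of all tested genes, and for 14 of 39 in male cells, again against 14.0%. Without male gel 2 and female plastic 4, 17 of 39 genes fell in female cells (14.5% of all tested genes) and 14 of 39 in male cells (14.0%). In that fit PSMA4, PSMC6, PSMD4 and PSMD6 also passed in female cells, PSMA2, PSMB4 and PSMB5 also passed in male cells, and PSMD7 and PSMD12 did not pass in male cells. Without male 4, female 1 and female 4 on both surfaces, 4 of 39 fell in female cells (5.32%) and 6 of 39 in male cells (9.74%), in a fit of 10 libraries. In female cells PSMA1, PSMA2, PSMA3, PSMB1, PSMB4, PSMB5, PSMD3, PSMD5 and PSMD11 lost their calls there, with adjusted p of 0.0632 to 0.284. In male cells PSMA4, PSMA5, PSMC6, PSMD3, PSMD4, PSMD7 and PSMD12 lost theirs. On plastic the 3 cultures left out had 87.95 to 174 CPM of the endothelial gene CDH5, against 20.95 to 42.29 CPM in the other plastic libraries. On gel they had 20.29 to 47.14 CPM, against 4.97 to 11.18 CPM in the other gel libraries, and the part of endothelial cells in these counts was not tested. In fits of only the 8 libraries compared, 10 of 39 fell in female (11.2%) and 7 of 39 in male cells (9.63%), and with the replicate number as a block 13 of 39 fell in female (13.1%) and 11 of 39 in male cells (14.2%).

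**Figure D1:**
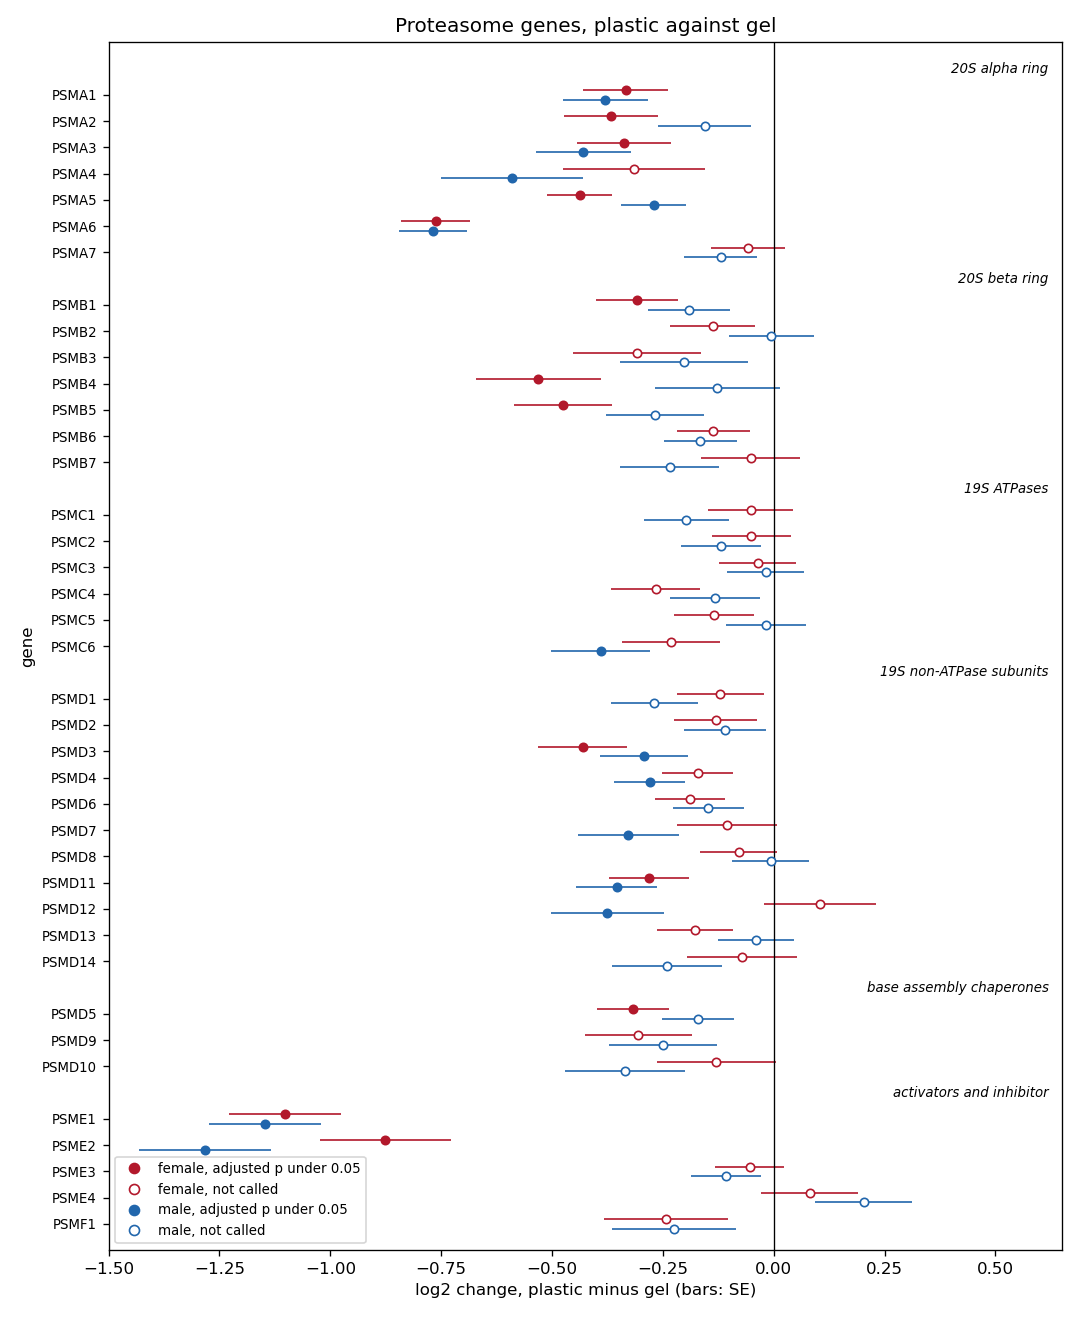
Log2 change, plastic minus gel, of the 39 tested proteasome genes by subcomplex, with bars of 1 SE; red is female, blue is male, and filled points have an adjusted p under 0.05. PSME1, PSME2 and PSMA6 lie farthest to the left in both sexes, and PSME4 lies right of 0 in both.

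The largest falls were those of PSME1 and PSME2, which encode the alpha and beta subunits of the interferon-inducible activator cap. PSME1 had 32.2, 33.1, 33.7 and 36.03 CPM in the female plastic libraries 1 to 4, against 68.2, 69.8, 80.04 and 71.7 CPM in the female gel libraries 1 to 4. It had 34.1, 35.7, 35.3 and 30.1 CPM in male plastic, against 59.6, 99.2, 73.1 and 67.6 CPM in male gel. Within each sex, every plastic library lay below every gel library, and the highest gel value was that of male gel 2. On the log2 scale PSME1 changed by -1.10 (SE 0.13, adjusted p = 1.18e-05) in female cells and by -1.15 (SE 0.13, adjusted p = 8.08e-06) in male cells. As a share of the gel level, PSME1 fell by 53.4% in female and fell by 54.8% in male cells.

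PSME2 had 16.03, 9.91, 11.53 and 12.8 CPM in female plastic, against 23.1, 20.04, 23.8 and 25.3 CPM in female gel. Male plastic libraries held 11.2, 11.07, 10.3 and 10.8 CPM of PSME2, against 22.4, 32.1, 22.7 and 28.3 CPM in male gel. Again no plastic library reached the lowest gel library of its sex; female plastic 1 came closest. The log2 change of PSME2 was -0.88 (SE 0.15, adjusted p = 0.000378) in female and -1.28 (SE 0.15, adjusted p = 1.27e-05) in male cells. Without male gel 2 and female plastic 4, the log2 changes of PSME1 were -1.14 in female and -0.98 in male cells, and those of PSME2 were -0.89 and -1.17. PSME1 and PSME2 lie 3958 bases apart on chromosome 7 of Sscrofa11.1, at 75161830 to 75164531 and 75154570 to 75157871. PSME1 shares part of its span with EMC9, whose reads came to 18.1% of those of PSME1, and the strand setting of the counting is not given in the sources used here, so reads from the shared stretch cannot be assigned.

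The other activators did not pass the test. PSME3, which forms a nuclear activator ring, had 60.7, 57.9, 57.6 and 59.3 CPM in female plastic, against 60.6, 59.7, 61.9 and 62.4 CPM in female gel. In male plastic PSME3 had 56.8, 58.1, 61.5 and 52.2 CPM, against 54.3, 64.9, 65.4 and 61.7 CPM in male gel. The groups overlapped in both sexes. The 95% interval of the log2 change of PSME3 was -0.22 to 0.11 in female and -0.27 to 0.06 in male cells, so it leaves out a fall of the size seen for PSME1.

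PSME4, the large single-chain activator linked to histone degradation, had 114, 98.4, 93.3 and 109.8 CPM in female plastic, against 113, 89.96, 88.9 and 101 CPM in female gel. In male cells PSME4 had 109, 99.1, 101 and 123 CPM on plastic, against 89.5, 96.9, 82.5 and 107 CPM on gel. PSME4 was higher on plastic in 4 of 4 replicate numbers of each sex, but the groups overlapped. Its log2 change was 0.08 (SE 0.11, adjusted p = 0.637) in female and 0.20 (SE 0.11, adjusted p = 0.187) in male cells. With the replicate number as a block the male change was 0.20 with an adjusted p of 0.0807. The ratio of PSME4 to PSME1 counts within a library was 3.09 ± 0.334 in female plastic, against 1.37 ± 0.228 in female gel (mean ± SD, n = 4 each). In male cells this ratio was 3.24 ± 0.601 on plastic, against 1.298 ± 0.291 on gel.

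PSMF1 encodes a proteasome-binding protein first described as an inhibitor. It had 18.6, 18.99, 17.5 and 14.9 CPM in female plastic, against 15.8, 24.6, 23.9 and 18.4 CPM in female gel. Its levels in male plastic were 17.1, 20.6, 16.5 and 15.98 CPM, against 21.01, 20.4, 21.6 and 19.03 CPM in male gel. The groups overlapped in both sexes, and the log2 changes of -0.24 (SE 0.14, adjusted p = 0.231) in female and -0.22 (SE 0.14, adjusted p = 0.256) in male cells did not pass.

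**Figure D2:**
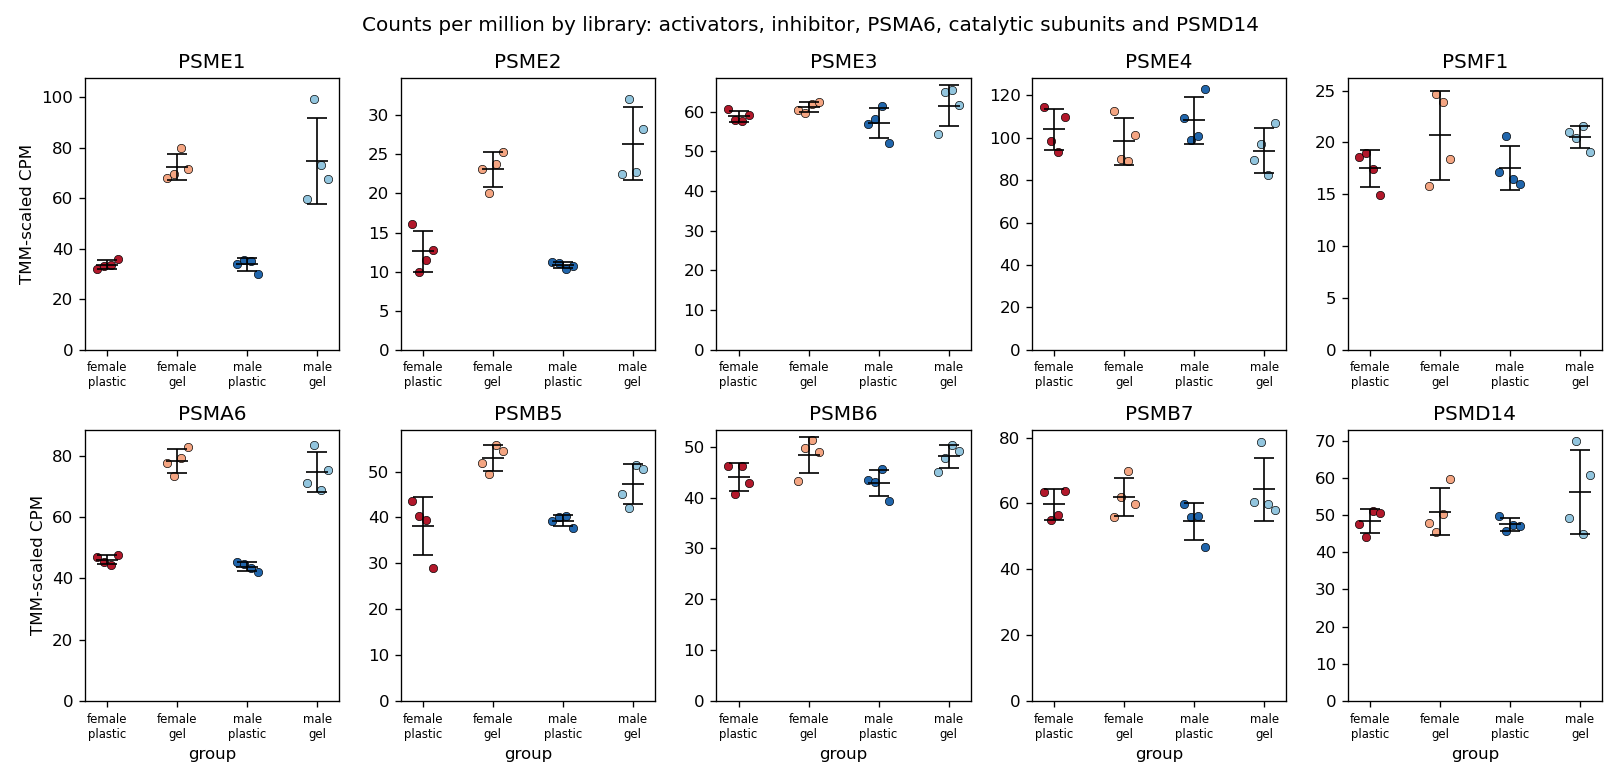
TMM-scaled CPM in every library for PSME1, PSME2, PSME3, PSME4, PSMF1, PSMA6, PSMB5, PSMB6, PSMB7 and PSMD14, by group; each point is a library, and bars are the mean ± SD (n = 4). PSME1, PSME2 and PSMA6 show plastic libraries below all gel libraries of the same sex, and the groups overlap for PSME3, PSME4, PSMF1, PSMB6, PSMB7 and PSMD14.

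The alpha ring was the subcomplex with the largest share of changed genes. In female cells 5 of 7 alpha genes fell (PSMA1, PSMA2, PSMA3, PSMA5 and PSMA6), and in male cells 5 of 7 fell (PSMA1, PSMA3, PSMA4, PSMA5 and PSMA6). Over all tested genes, 11.3% fell in female and 12.9% in male cells. Differences between the subcomplexes were not tested. The median log2 change of the 7 was -0.34 in female and -0.38 in male cells. PSMA6 had 46.99, 45.4, 44.5 and 47.7 CPM in female plastic, against 77.7, 73.4, 79.3 and 82.8 CPM in female gel. In male plastic it had 45.2, 44.8, 43.4 and 41.9 CPM, against 71.1, 83.5, 68.9 and 75.3 CPM in male gel. The plastic values of PSMA6 lay within a few CPM of each other, and none came near a gel value. PSMA6 changed by -0.76 (SE 0.08, adjusted p = 3.56e-06) in female and by -0.77 (SE 0.08, adjusted p = 3.36e-06) in male cells.

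PSMA6 was also lower on plastic relative to its ring partners. The ratio of PSMA6 to the summed counts of the other 6 alpha genes was 0.142 ± 0.00368 in female plastic, against 0.197 ± 0.00763 in female gel (mean ± SD, n = 4 each). In male cells it was 0.136 ± 0.00481 on plastic, against 0.187 ± 0.00734 on gel, and the groups did not overlap in either sex. PSMA6 was singled out here for its fall, so this ratio carries no test.

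PSMA5 averaged 42.7 ± 0.531 CPM in female plastic, against 57.8 ± 3.21 CPM in female gel, a log2 change of -0.44 (SE 0.07, adjusted p = 0.000344). In male cells PSMA5 averaged 46.1 ± 1.64 CPM on plastic, against 55.7 ± 3.32 CPM on gel, a log2 change of -0.27 (SE 0.07, adjusted p = 0.0119). PSMA1 changed by -0.33 (SE 0.10, adjusted p = 0.0177) and -0.38 (SE 0.10, adjusted p = 0.00798) in female and male cells, and PSMA3, whose protein carries a flexible tail outside the ring, by -0.34 (SE 0.11, adjusted p = 0.0296) and -0.43 (SE 0.11, adjusted p = 0.00721). PSMA2 passed in female cells, with log2 changes of -0.37 (SE 0.11, adjusted p = 0.018) in female and -0.16 (SE 0.11, adjusted p = 0.299) in male cells; without male gel 2 and female plastic 4 it passed in male cells too, with -0.19 (adjusted p = 0.0418). PSMA4 passed in male cells, with log2 changes of -0.31 (SE 0.16, adjusted p = 0.173) in female and -0.59 (SE 0.16, adjusted p = 0.0128) in male cells. Male gel 2 was the highest library of PSMA4 at 88.3 CPM, against 48.2 to 65.5 CPM in the other male gel libraries; without it the male change was -0.39 and stayed past the threshold (adjusted p = 0.0366). Without male gel 2 and female plastic 4 PSMA4 passed in both sexes, with -0.40 (adjusted p = 0.0243) in female and -0.39 (adjusted p = 0.0241) in male cells. PSMA7 was the alpha gene nearest to 0, with a 95% interval of -0.23 to 0.12 in female and -0.29 to 0.06 in male cells. The span of PSMA7 overlaps LSM14B, whose reads came to 75.8% of those of PSMA7, and that of PSMA3 overlaps LOC102165044, with 17.6%.

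Some of these calls depended on single libraries. In female cells PSMA1 lost its call without female plastic 3 (adjusted p = 0.0587) and PSMA2 without female gel 3 (adjusted p = 0.0604). PSMA3 lost its female call without any 1 of female plastic 1, 2 or 3 or female gel 3 or 4, with adjusted p up to 0.0993. PSMA6 and PSMA5 kept their calls in both sexes whichever of the 16 libraries was left out. However, PSMA5 lost its male call against a fold of 1.2 (adjusted p = 0.5) and in the 8 libraries compared (adjusted p = 0.0644). Without male 4, female 1 and female 4 on both surfaces, PSMA5 and PSMA4 both lost it, with adjusted p of 0.127 and 0.0856. In the same fit PSMA1, PSMA2 and PSMA3 lost their female calls, with adjusted p of 0.0961, 0.255 and 0.0925.

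In the beta ring, 3 of 7 genes fell in female cells (PSMB1, PSMB4 and PSMB5) and 0 of 7 in male cells by edgeR, where 1 of 7 (PSMB5) had an unadjusted p under 0.05 and DESeq2 and limma-voom also called 0. The shares of all tested genes that fell were 11.3% in female and 12.9% in male cells. All 7 log2 changes were negative in both sexes, with medians of -0.31 in female and -0.19 in male cells. PSMB5 carries the chymotrypsin-like active site, the target of bortezomib. It had 43.6, 40.2, 39.5 and 28.9 CPM in female plastic, against 51.8, 49.6, 55.9 and 54.4 CPM in female gel. In male plastic PSMB5 had 39.3, 40.1, 40.2 and 37.7 CPM, against 45.2, 42.1, 51.5 and 50.5 CPM in male gel. Plastic lay below gel without overlap in both sexes, with female plastic 4 the lowest library of all 16. The log2 change was -0.48 (SE 0.11, adjusted p = 0.00471) in female and -0.27 (SE 0.11, adjusted p = 0.0868) in male cells. Left out alone, male gel 2 or female plastic 4 brought the male change past the threshold, and without both it was -0.32 (adjusted p = 0.00309). The female call of PSMB5 was lost without male 4, female 1 and female 4 on both surfaces (adjusted p = 0.0788).

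PSMB6 carries the caspase-like site. It had 46.3, 40.7, 46.2 and 42.8 CPM in female plastic, against 43.4, 49.8, 51.3 and 49.02 CPM in female gel. The male plastic libraries had 43.4, 43.1, 45.7 and 39.3 CPM of PSMB6, against 45.1, 47.8, 50.5 and 49.1 CPM in the male gel libraries. The groups overlapped in both sexes, and the log2 changes were -0.14 (SE 0.08, adjusted p = 0.256) in female and -0.17 (SE 0.08, adjusted p = 0.156) in male cells.

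PSMB7, with the trypsin-like site, had 63.5, 55.04, 56.4 and 63.8 CPM in female plastic, against 55.8, 62.01, 69.9 and 59.9 CPM in female gel. In male cells PSMB7 had 59.8, 55.7, 56.1 and 46.6 CPM on plastic, against 60.6, 78.6, 59.9 and 57.9 CPM on gel. Apart from male gel 2, the male gel libraries lay at the top of the male plastic range. The log2 change of PSMB7 was -0.05 (SE 0.11, adjusted p = 0.776) in female and -0.23 (SE 0.11, adjusted p = 0.138) in male cells, and the male value was -0.12 without male gel 2.

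Among the beta genes without an active site, PSMB4 averaged 60.8 ± 10.995 CPM in female plastic, against 87.9 ± 5.54 CPM in female gel, a log2 change of -0.53 (SE 0.14, adjusted p = 0.0115). In male cells PSMB4 averaged 69.2 ± 5.03 CPM on plastic, against 75.5 ± 14.1 CPM on gel, a change of -0.13 (SE 0.14, adjusted p = 0.549). Male gel 2 was the lowest male gel library of PSMB4, at 54.9 CPM against 78.6 to 86.4 CPM in the others. Without male gel 2 and female plastic 4, the PSMB4 change was -0.41 in female and -0.25 (adjusted p = 0.0227) in male cells. The female call of PSMB4 was lost without male 4, female 1 and female 4 on both surfaces (adjusted p = 0.191). PSMB1 had log2 changes of -0.31 (SE 0.09, adjusted p = 0.0229) in female and -0.19 (SE 0.09, adjusted p = 0.145) in male cells, and lost its female call without female plastic 2, female plastic 4 or female gel 3, with adjusted p up to 0.0752. PSMB2 had log2 changes of -0.14 and -0.01, and PSMB3 of -0.31 and -0.20, in female and male cells, and neither passed; PSMB3 passed in female cells without female plastic 1 (adjusted p = 0.0414).

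The 3 interferon-inducible beta subunits that can replace the constitutive catalytic ones in the immunoproteasome, PSMB8, PSMB9 and PSMB10, are outside the gene set and serve here as a comparison. All 3 fell in both sexes, and PSMB8 had log2 changes of -1.04 (SE 0.15, adjusted p = 0.000113) in female and -0.81 (SE 0.15, adjusted p = 0.000866) in male cells. PSMB9 changed by -1.86 (SE 0.31, adjusted p = 0.000327) and -1.36 (SE 0.31, adjusted p = 0.00363), and PSMB10 by -1.81 (SE 0.23, adjusted p = 2.74e-05) and -2.05 (SE 0.23, adjusted p = 8.93e-06), in female and male cells. PSMB9 was scarce, with 14 to 28 reads per library in female plastic against 73 to 97 in female gel, and 19 to 25 reads in male plastic against 23 to 95 in male gel.

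Each inducible subunit was set against the constitutive subunit it replaces, as a ratio of counts within a library; the genes' lengths are not removed, so only groups can be compared. PSMB8 over PSMB5 was 0.14004 ± 0.00803 in female plastic, against 0.207 ± 0.0205 in female gel (mean ± SD, n = 4 each). In male cells it was 0.142 ± 0.0194 on plastic, against 0.208 ± 0.0238 on gel. PSMB10 over PSMB7 was 0.0476 ± 0.00672 in female plastic, against 0.163 ± 0.0198 in female gel. On male plastic that ratio was 0.0467 ± 0.0155, against 0.1697 ± 0.0495 on male gel. No plastic library reached the lowest gel library of its sex in either ratio. PSMB9 over PSMB6 was 0.0195 ± 0.00545 in female plastic, against 0.0654 ± 0.0121 in female gel. For males it was 0.0267, 0.0254, 0.0184 and 0.0236 in plastic libraries 1 to 4, against 0.0599, 0.0272, 0.0702 and 0.0557 in gel libraries 1 to 4, and here male gel 2 lay at the edge of the plastic range.

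PSME1 was lower on plastic also relative to the core. Its ratio to the summed counts of the 14 core genes was 0.0481 ± 0.00456 in female plastic, against 0.0821 ± 0.00266 in female gel. In male cells the PSME1 ratio was 0.0477 ± 0.00337 on plastic, against 0.0868 ± 0.0179 on gel. PSME2 over the core was 0.0178 ± 0.00294 in female plastic, against 0.0262 ± 0.00206 in female gel. Its male ratio was 0.0153 ± 0.000616 on plastic, against 0.0306 ± 0.00433 on gel. None of these groups overlapped within a sex.

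**Figure D3:**
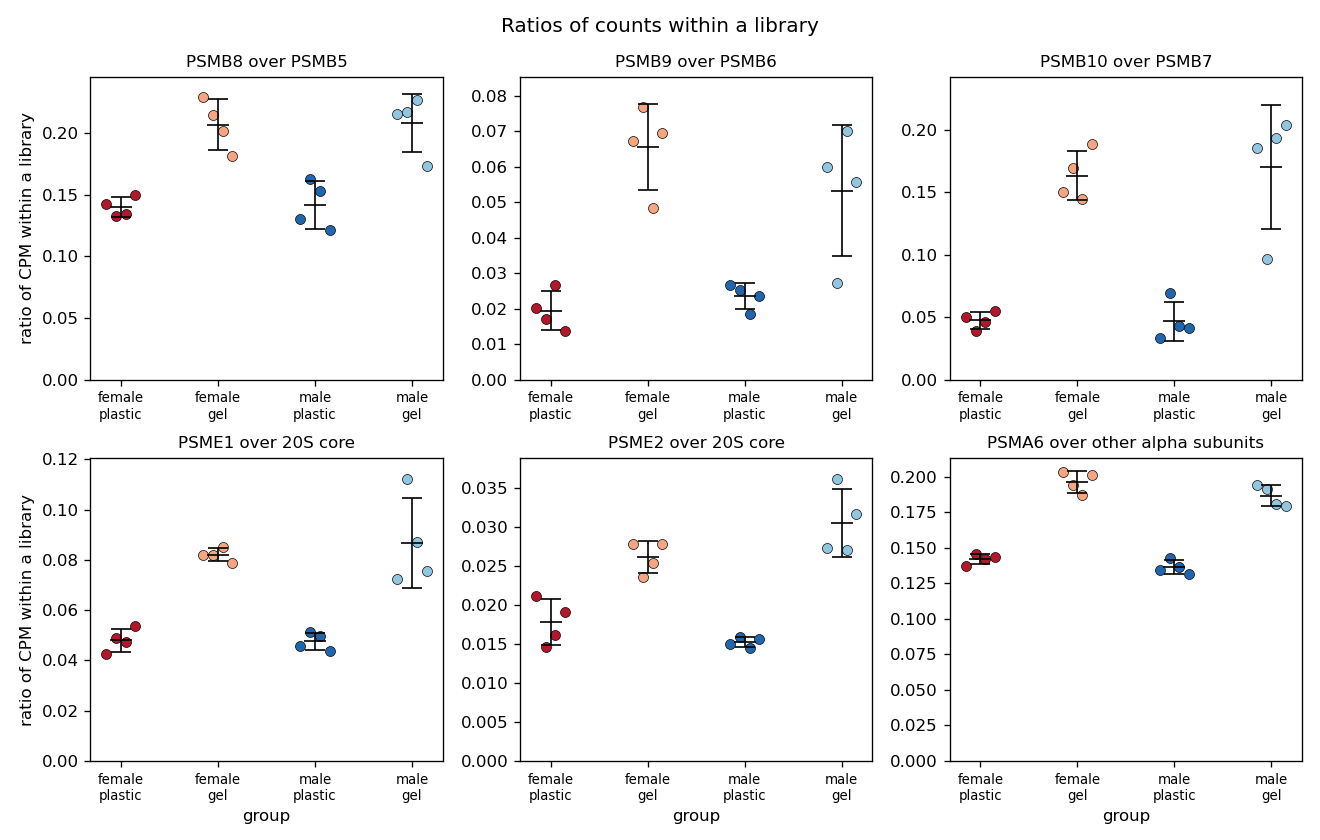
Ratios of counts within each library, by group: PSMB8 over PSMB5, PSMB9 over PSMB6, PSMB10 over PSMB7, PSME1 and PSME2 over the summed core genes, and PSMA6 over the other alpha genes; points are libraries and bars the mean ± SD (n = 4). Plastic lies below gel in all 6 panels, and male gel 2 nearly meets the male plastic libraries for PSMB9 over PSMB6, with a ratio of 0.0272.

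The 19S ATPases, the ring that unfolds substrates, had the medians nearest to 0 among the subcomplexes. By edgeR 0 of 6 fell in female cells, where 1 of 6 (PSMC4) had an unadjusted p under 0.05 and DESeq2 and limma-voom also called 0, and 1 of 6 (PSMC6) fell in male cells. Over all tested genes, 11.3% fell in female and 12.9% in male cells, so 1 of 6 lies near that share. The medians of the 6 log2 changes were -0.09 in female and -0.13 in male cells. PSMC6 averaged 72.5 ± 6.33 CPM in female plastic, against 85.2 ± 3.96 CPM in female gel, a change of -0.23 (SE 0.11, adjusted p = 0.147). In male cells PSMC6 averaged 70.1 ± 1.94 CPM on plastic, against 92.01 ± 17.97 CPM on gel, a change of -0.39 (SE 0.11, adjusted p = 0.0169). Male gel 2 was the highest library of PSMC6 at 117 CPM, and the male call held without it, at -0.25 (adjusted p = 0.0336). That call was lost in the 8 libraries compared (adjusted p = 0.0675). It was also lost without male 4, female 1 and female 4 on both surfaces (adjusted p = 0.0824). In female cells PSMC6 passed without male gel 2 (-0.23, adjusted p = 0.0293), and without both male gel 2 and female plastic 4 (-0.29, adjusted p = 0.00657). PSMC4 passed in female cells without any 1 of male gel 2, female plastic 3 or female gel 1, with adjusted p of 0.0276 to 0.0487. The 95% intervals of PSMC3 were -0.22 to 0.15 in female and -0.20 to 0.17 in male cells, and those of PSMC5 -0.33 to 0.05 and -0.21 to 0.17. PSMC1 overlaps NRDE2, whose reads came to 38.5% of its own, and PSMC5 overlaps FTSJ3, with 66.7%.

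Of the 11 non-ATPase subunits of the 19S particle, 2 fell in female cells (PSMD3 and PSMD11) and 5 in male cells (PSMD3, PSMD4, PSMD7, PSMD11 and PSMD12). Among all tested genes, 11.3% fell in female and 12.9% in male cells. Medians of the 11 log2 changes were -0.13 in female and -0.27 in male cells. PSMD3 is a lid subunit, and it averaged 62.9 ± 3.17 CPM in female plastic, against 84.8 ± 10.1 CPM in female gel, a change of -0.43 (SE 0.10, adjusted p = 0.00457). In male cells PSMD3 averaged 64.2 ± 2.22 CPM on plastic, against 78.6 ± 9.59 CPM on gel, a change of -0.29 (SE 0.10, adjusted p = 0.0397). PSMD11, the lid subunit that links the lid to the core, changed by -0.28 (SE 0.09, adjusted p = 0.0335) in female and -0.35 (SE 0.09, adjusted p = 0.00906) in male cells. PSMD4, a ubiquitin receptor, had log2 changes of -0.17 (SE 0.08, adjusted p = 0.136) in female and -0.28 (SE 0.08, adjusted p = 0.0174) in male cells. It passed in female cells too without male gel 2 (-0.17, adjusted p = 0.0248), and without both male gel 2 and female plastic 4 (-0.17, adjusted p = 0.0252). Its male call was lost in the 8 libraries compared (adjusted p = 0.0913). That call was also lost without male 4, female 1 and female 4 on both surfaces (adjusted p = 0.0878). PSMD7, the partner of the deubiquitinase PSMD14, had log2 changes of -0.11 (SE 0.11, adjusted p = 0.541) in female and -0.33 (SE 0.11, adjusted p = 0.0425) in male cells.

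Several of these calls sat near the threshold. With the replicate number as a block, the male changes of PSMD3 (-0.29, adjusted p = 0.0658) and PSMD7 (-0.31, adjusted p = 0.0558) did not pass. The male call of PSMD3 was lost without any 1 of male plastic 1 to 4, male gel 1, 3 or 4, female plastic 1 or 2, or female gel 2 or 3, with adjusted p up to 0.123. In the 8 libraries compared the male call of PSMD3 was lost too (adjusted p = 0.0844), as it was with no filter (adjusted p = 0.0776). The male call of PSMD7 was lost without any 1 of male plastic 1 to 4, male gel 2 or 4, female plastic 1 or 3, or female gel 2 or 3, with adjusted p up to 0.121. Without male gel 2 the PSMD7 change was -0.22. RLE scaling (adjusted p = 0.0552), limma-voom (adjusted p = 0.057), no filter (adjusted p = 0.0665) and the 8 libraries compared (adjusted p = 0.11) also lost this PSMD7 call. PSMD11 lost its female call without any 1 of female plastic 2 to 4 or female gel 2 to 4, with adjusted p up to 0.0976. That call was also lost by RLE scaling (adjusted p = 0.0522), with no filter (adjusted p = 0.0568) and in the 8 libraries compared (adjusted p = 0.0639). Without male 4, female 1 and female 4 on both surfaces, PSMD3 and PSMD11 lost their female calls (adjusted p = 0.0777 and 0.0632).

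PSMD14, the deubiquitinase that strips ubiquitin from substrates, had 47.6, 44.1, 51.2 and 50.7 CPM in female plastic, against 47.9, 45.5, 50.3 and 59.8 CPM in female gel. Among male libraries PSMD14 had 49.8, 45.8, 47.4 and 46.996 CPM on plastic, against 49.2, 69.9, 44.9 and 60.7 CPM on gel. The plastic values lay inside the gel range of their sex, apart from female plastic 2 just below it. The log2 changes of PSMD14 were -0.07 (SE 0.12, adjusted p = 0.718) in female and -0.24 (SE 0.12, adjusted p = 0.169) in male cells, and neither passed; without male gel 2 the male value was -0.12 (adjusted p = 0.469). PSMD14 overlaps TBR1 and LOC100739694, and the one with more reads had 0.1% of the reads of PSMD14.

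PSMD12, another lid subunit, was the gene with opposite signs in the sexes. It had 83.4, 73.9, 81.4 and 94.5 CPM in female plastic, against 75.1, 72.8, 73.3 and 88.8 CPM in female gel. In male plastic PSMD12 had 78.4, 69.8, 68.03 and 72.9 CPM, against 82.5, 120.3, 75.6 and 96.7 CPM in male gel. Female plastic 4 was the highest female library and male gel 2 the highest male library, and the groups overlapped in both sexes. The log2 change was 0.10 (SE 0.13, adjusted p = 0.599) in female and -0.38 (SE 0.13, adjusted p = 0.0395) in male cells. The male call was lost without any 1 of male plastic 2, 3 or 4, male gel 2 or 4, or female plastic 1, with adjusted p up to 0.121. Without male gel 2 and female plastic 4 the male change was -0.23 (adjusted p = 0.0824). By limma-voom (adjusted p = 0.0517), with no filter (adjusted p = 0.0532) and in the 8 libraries compared (adjusted p = 0.0996) the male call was lost as well. PSMD1 and PSMD2, the large scaffold subunits of the base, had log2 changes of -0.12 and -0.13 in female cells and -0.27 and -0.11 in male cells, none past the threshold. With all libraries PSMD1 passed in male cells by DESeq2 (adjusted p = 0.0495) and by edgeR with the filter at 1 CPM (adjusted p = 0.049). It also passed in male cells without male gel 1 (adjusted p = 0.032) or male gel 3 (adjusted p = 0.0339), and its male change was -0.17 without male gel 2. PSMD6 shares part of its span with ATXN7, whose reads came to 147.2% of its own, and PSMD1 with HTR2B, at 3.9%.

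The 3 chaperones that help assemble the ATPase ring, PSMD5, PSMD9 and PSMD10, are not part of the finished particle. PSMD5 fell in female cells, with -0.32 (SE 0.08, adjusted p = 0.00892), and did not pass in male cells, with -0.17 (SE 0.08, adjusted p = 0.134). Its plastic libraries lay below its gel libraries in both sexes. Its female call was lost without male 4, female 1 and female 4 on both surfaces (adjusted p = 0.0725). PSMD9 had log2 changes of -0.31 (SE 0.12, adjusted p = 0.0807) in female and -0.25 (SE 0.12, adjusted p = 0.146) in male cells, and PSMD10, the X-linked gene of gankyrin, of -0.13 (SE 0.13, adjusted p = 0.529) and -0.34 (SE 0.13, adjusted p = 0.0777). Neither passed in either sex. PSMD9 passed in female cells without female gel 2 (adjusted p = 0.0345). PSMD10 passed in male cells without male gel 4 (-0.44, adjusted p = 0.0227), and its male change was -0.20 without male gel 2. Of the 3 chaperones, 0 passed in male cells by edgeR, DESeq2 or limma-voom, and by edgeR 1 (PSMD10) had an unadjusted p under 0.05. Among all tested genes, 12.9% fell in male cells by edgeR. PSMD10 overlaps ATG4A, whose reads came to 22.9% of its own.

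The summed level of all 41 genes lay lower in every plastic library than in any gel library of the same sex. It was 2404, 2180.2, 2307 and 2294 CPM in the female plastic libraries 1 to 4, against 2556, 2556, 2751 and 2824 CPM in female gel. Male plastic had 2339, 2224, 2270.4 and 2245 CPM, against 2524, 2843, 2509 and 2794 CPM in male gel. The log2 ratio of group means was -0.22 in female and -0.23 in male cells. By RLE scaling it was -0.19 and -0.22. Without scaling factors it was -0.46 and -0.47, of which -0.24 in each sex is the shift of all genes between the scalings.

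By subcomplex, the summed alpha ring averaged 371 ± 16.9 CPM in female plastic, against 477 ± 25.4 CPM in female gel, and 366 ± 10.3 CPM in male plastic, against 475 ± 38.5 CPM in male gel (SD, n = 4 each). The summed beta ring averaged 333 ± 33.9 CPM in female plastic, against 406 ± 27.2 CPM in female gel, and 343 ± 14.995 CPM in male plastic, against 385 ± 13.3 CPM in male gel. The summed ATPases averaged 409.9 ± 17.8 CPM in female plastic, against 445 ± 24.3 CPM in female gel, and 403 ± 11.6 CPM in male plastic, against 447 ± 31.1 CPM in male gel. Alpha ring sums did not overlap between surfaces in either sex, while those of the ATPases did in female cells. The 19S particle over the core, as summed counts, was 1.81 ± 0.0893 in female plastic, against 1.59 ± 0.0634 in female gel. In male cells that ratio was 1.75 ± 0.0316 on plastic, against 1.65 ± 0.0764 on gel. There the lowest plastic library, at 1.7178, lay just above the highest gel library, at 1.7165.

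**Figure D4:**
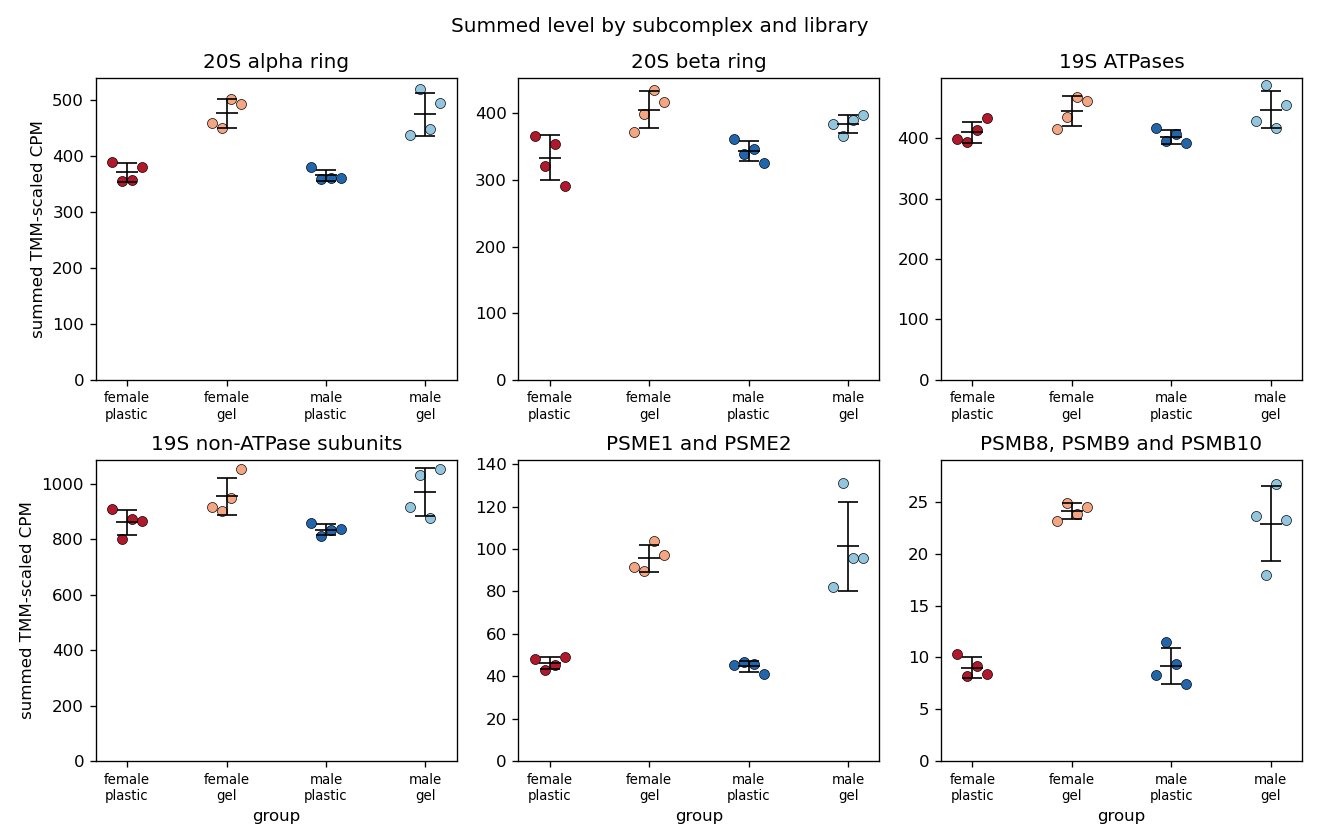
Summed TMM-scaled CPM by library for the alpha ring, the beta ring, the 19S ATPases, the 19S non-ATPase subunits, PSME1 with PSME2, and PSMB8 with PSMB9 and PSMB10; points are libraries and bars the mean ± SD (n = 4). The sum of PSME1 and PSME2 was 42.98 to 48.8 CPM in female plastic against 89.8 to 104 CPM in female gel, and 40.9 to 46.8 CPM in male plastic against 82.04 to 131 CPM in male gel.

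**Figure D5:**
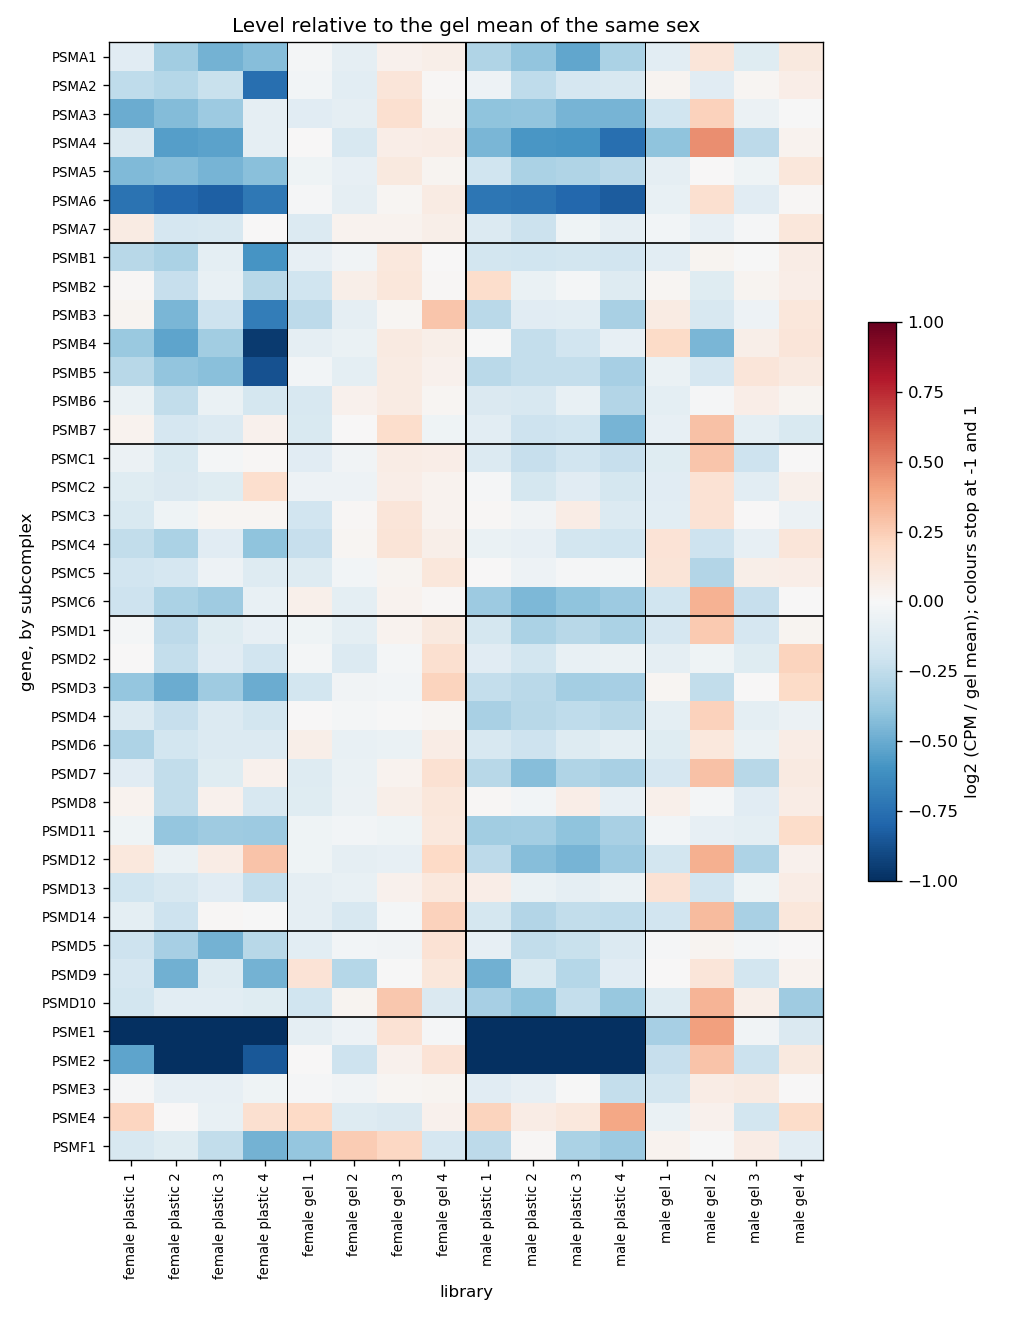
Level of each of the 39 tested genes in each library, as log2 of its CPM over the mean of the gel libraries of the same sex; blue is below and red above that mean, and lines part subcomplexes and groups. PSME1, PSME2 and PSMA6 are blue in all 8 plastic libraries, and female plastic 4 and male gel 2 differ most from the other libraries of their groups.

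Female and male cells did not differ in these genes past the threshold. On plastic 0 of 39 genes passed by edgeR for female against male, where 0.124% of all tested genes passed, and 0 had an unadjusted p under 0.05, against 1.95% of all. On gel 0 of 39 passed, where 0.103% of all tested genes passed, and 1 (PSMD12) had an unadjusted p under 0.05, against 3.85% of all. DESeq2 and limma-voom also called 0 of 39 on each surface. The smallest p on plastic were those of PSMD12, with a log2 difference, female minus male, of 0.21 (SE 0.13, adjusted p = 0.98), and of PSMA5, with -0.11 (SE 0.07, adjusted p = 0.98). On gel they were PSMD12, with -0.27 (SE 0.13, adjusted p = 0.852), and PSMD10, with -0.21 (SE 0.13, adjusted p = 0.852). Without male gel 2 these gel differences were -0.13 for PSMD12 and -0.08 for PSMD10. Over the 39 genes the 95% intervals of the female minus male difference stayed within -0.48 and 0.53 on plastic and within -0.54 and 0.52 on gel.

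The surface changes of the sexes were also tested against each other. For this difference 0 of 39 genes passed by edgeR, where 0% of all tested genes passed, and 1 (PSMD12) had an unadjusted p under 0.05, against 4.36% of all tested genes. By DESeq2 and by limma-voom 0 of 39 passed too. PSMD12 had the smallest p: its surface change was higher in female than in male cells by 0.48 (SE 0.18, adjusted p = 0.767), and by 0.27 without male gel 2 and female plastic 4. PSMB4 came next, with -0.40 (SE 0.20, adjusted p = 0.767), or -0.16 without those libraries. For PSME1 the difference of changes was 0.04 (95% interval -0.33 to 0.42), and for PSMA6 it was 0.01 (-0.23 to 0.24).

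Among other genes of the pathway, called genes lay in both directions, as they did over all tested genes, of which 11.3% fell and 12.7% rose in female and 12.9% fell and 12.9% rose in male cells. The transcription factor gene NFE2L1, whose product raises proteasome genes when the proteasome is impaired, changed by -0.36 (SE 0.10, adjusted p = 0.0138) in female and -0.37 (SE 0.10, adjusted p = 0.0118) in male cells. NGLY1, the enzyme that removes sugar chains from that factor during its activation, rose by 0.87 (SE 0.16, adjusted p = 0.000716) in female and 0.60 (SE 0.16, adjusted p = 0.00965) in male cells. The related factor NFE2L2 had log2 changes of -0.32 (SE 0.12, adjusted p = 0.0559) in female and -0.53 (SE 0.12, adjusted p = 0.00288) in male cells. Of the 6 measured genes of this list, 1 fell and 1 rose in female cells, and 2 fell and 1 rose in male cells.

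Of 6 assembly factors outside the gene set, 1 fell in female cells (PSMG2, with -0.44 (SE 0.12, adjusted p = 0.0126)) and 0 in male cells, where the PSMG2 change was -0.28 (SE 0.12, adjusted p = 0.103) and 1 of 6 had an unadjusted p under 0.05; DESeq2 and limma-voom also called 0 of them in male cells. Among 14 other proteasome-bound proteins, 1 fell and 2 rose in female cells, and 2 fell and 1 rose in male cells, which is near the shares of all tested genes. AKIRIN2, needed to import proteasomes into the nucleus, was among those that rose in both, with 0.54 (SE 0.15, adjusted p = 0.012) in female and 0.60 (SE 0.15, adjusted p = 0.00647) in male cells. ZFAND5, a proteasome-binding zinc finger protein, was lower in both, with -0.26 (SE 0.08, adjusted p = 0.0295) and -0.24 (SE 0.08, adjusted p = 0.0416). Of 6 ubiquitin and ubiquitin-activating genes, 1 rose in female cells (UBA6, with 0.46 (SE 0.15, adjusted p = 0.036)) and 0 changed in male cells, where 0 had an unadjusted p under 0.05 and DESeq2 and limma-voom also called 0.

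Markers of other cell types differed somewhat between the surfaces. The summed level of 12 endothelial markers was 211 to 551 CPM in female plastic, against 175 to 279.8 CPM in female gel, and 197 to 334 CPM in male plastic, against 154 to 264 CPM in male gel. By the test, 3 of the 12 rose in female and 2 in male cells and 0 fell, and the endothelial gene CDH5 was highest at 174 CPM in female plastic 1. The summed level of 8 leukocyte markers, of which 3 could be tested, with 1 lower (CD14) and 1 higher (LAPTM5) in each sex, was 8.67 to 38.5 CPM in female plastic, against 11.4 to 14.5 CPM in female gel, and 8.27 to 17.5 CPM in male plastic, against 5.76 to 12.98 CPM in male gel. Cycling cell markers summed to 145 to 390.2 CPM in female plastic, against 104 to 226 CPM in female gel, and to 166 to 214 CPM in male plastic, against 121 to 188 CPM in male gel. Of these 6 markers, edgeR and limma-voom called 0 in either sex, and DESeq2 called 1 (MKI67, higher) in each. At an unadjusted p under 0.05 by edgeR, 1 was higher and 1 lower in female cells, and 2 were higher in male cells. Epithelial markers summed to at most 0.452 CPM and cardiac muscle markers to at most 2.09 CPM in any library. The part of these cells in the falls of proteasome genes was not tested.

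PSMA8 and PSMB11, the alpha subunit of the testis and the beta subunit of the thymus, were not tested. PSMA8 had 1 read in 1 of 16 libraries, and PSMB11 had 0 reads in all 16.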

How the data were processed

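PolyA RNA was measured in 16 libraries (RNeasy Micro extraction and KAPA mRNA HyperPrep libraries, per the labels' protocols). Per the submitters' processing notes, the authors used FastQC 0.11.5, Trimmomatic 0.36, HISAT2 2.1.0, SAMtools 1.3.1 and featureCounts, with the Sscrofa11.1 build. The strand setting and the annotation used for counting are not given in the sources used here. The deposited table holds raw read counts per gene in 29576 entries; 24 without a gene name, with 0.169% of the counts, were left out.

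The counts were analysed with edgeR 4.0.16 in R 4.3.3. Genes were kept by filterByExpr by group, libraries were scaled by TMM (factors 0.896 to 1.124), and 4 group means were fitted over all 16 libraries (12 residual degrees of freedom, median biological coefficient of variation 0.182). Contrasts were tested with glmQLFit and glmQLFTest, with Benjamini-Hochberg adjusted p-values over 14530 genes and a threshold of 0.05. Levels are TMM-scaled CPM computed here from the counts; they are not divided by gene length, so levels of different genes are not compared. Depth was 16897547 to 27436151 counts per library. The tested proteasome genes had 212 to 7260 reads per library (median 1406), which gives a Poisson error of 6.87% at the lowest and 2.67% at the median count; the spread between libraries includes this error. The analysis was tested on simulated counts. Positions are those of the RefSeq table of Sscrofa11.1, in which all 41 genes were found.

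The proteasome genes and the other gene lists were chosen with earlier results of these data known, and tests over them are not independent support. All 39 tested genes could be named; values in every library are given for the 3 largest falls and rises among called genes of either sex, PSMB5, PSMB6, PSMB7, PSME1 to PSME4, PSMF1 and PSMD14. For comparisons between the sexes, the 2 genes with the smallest p are given where none passed; of other lists, at most the 4 with the smallest p, and PSMB8, PSMB9 and PSMB10.

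Same-numbered plastic and gel libraries of a sex deviated together from their group means (correlations over genes of 0.13 to 0.49 in 8 pairs, each plastic library correlating best with its own number in 8 of 8), so the numbers were taken as likely pairs. This comes from the data, since the labels do not state it. The main fit did not use the pairing, so its SEs, intervals and calls are unpaired. The fit with the replicate block, which uses it, was an alternative. Others were DESeq2 1.42.0, limma-voom (limma 3.58.1), scaling by RLE size factors, no filter, a filter at 1 CPM in 4 or more libraries, a test against a fold of 1.2, fits of the 8 libraries compared, and leaving out libraries. No libraries were duplicates: chi-square per degree of freedom was 9.93 to 81.86 over the 24 pairs within groups. Figures were drawn with matplotlib 3.10.9.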

Additional observations from a re-analysis of the deposited data

Results flagged for a closer look

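In 60 groups of 4 libraries checked for a library far from the others, 2 had one; chance gives about 1 in 20. PSMB7 had 78.56 CPM in male gel 2, against 57.89 to 60.57 CPM in the other male gel libraries. The summed level of the alpha ring was 380.9 CPM in male plastic 1, against 358.6 to 361.9 CPM in the other male plastic libraries.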

How the results depend on the processing

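The number of proteasome genes lower on plastic was 13 of 39 in each sex. It was 12 to 13 in female and 10 to 14 in male cells under RLE size factors, DESeq2, limma-voom, no filter and a CPM filter. In these fits 6.56% to 12.4% of all tested genes fell in female and 7.01% to 14.2% in male cells. Against a fold of 1.2 the number was 4 in female and 3 in male cells (5.97% and 6.63% of all tested genes). With only the 8 libraries compared it was 10 and 7 (11.2% and 9.63%). Without male 4, female 1 and female 4 on both surfaces it was 4 in female and 6 in male cells, with fewer libraries fitted. Leaving out 1 library at a time gave 9 to 16 in female and 10 to 14 in male cells. With the replicate block it was 13 in female and 11 in male cells, where PSMD3 and PSMD7 were lost; it changed no other call among the genes, and 0 of 39 passed for the difference between the sexes. With no filter 40 genes were tested. The comparisons between the sexes gave 0 called genes under every alternative run.

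The summed level changed by -0.46 (female) and -0.47 (male) without scaling factors, against -0.22 and -0.23 as reported; the scalings differ by -0.24 for all genes. Leaving out 1 library gave -0.24 to -0.19 in female and -0.26 to -0.20 in male cells. Over the 39 genes and 26 alternatives, of 1014 female values 959 kept their sign and side of the threshold, 39 lost a call, 11 gained one and 5 changed sign; of 1014 male values 916 kept both, 60 lost a call, 10 gained one and 28 changed sign. The sign changes were in genes near 0 that passed in no fit (smallest adjusted p 0.251), and the cause was not tested. In male cells PSMB2 was 0.0071 by RLE, 0.0064 by DESeq2 and 0.0069 in the 8 libraries compared, and PSMD8 was 0.0054, 0.0055 and 0.0053. Without male 4, female 1 and female 4, the male values were 0.0673 for PSMB2, 0.0123 for PSMC3, 0.0155 for PSMC5, 0.0055 for PSMD13 and 0.0545 for PSMD8, and the female value of PSMD14 was 0.0078. Without male gel 2 and female plastic 4 the male value of PSMC3 was 0.0334. Leaving out 1 library gave, in male cells, -0.0693 to 0.0329 for PSMB2, -0.0521 to 0.0331 for PSMC3, -0.10 to 0.0275 for PSMC5, -0.10 to 0.0118 for PSMD13 and -0.0421 to 0.0182 for PSMD8. In female cells it gave -0.10 to 0.01 for PSMB7, -0.10 to 0.0151 for PSMC3 and -0.12 to 0.0141 for PSMD14. Promoter motif counts were not run, because no promoter sequences were at hand.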

Other observations

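Male gel 2 and female plastic 4 stood at the same end of their groups for many of the same genes, although they differ in sex and surface. Male gel 2 was the lowest library of its group for 10 of the 39 tested genes and female plastic 4 for 9, and 7 were lowest in both: PSMA2, PSMB2, PSMB3, PSMB4, PSMB5, PSMC4 and PSMD13. Male gel 2 was the highest of its group for 20 genes and female plastic 4 for 12, and 11 were highest in both: PSMA3, PSMA4, PSMA6, PSMB7, PSMC1, PSMC2, PSMC3, PSMC6, PSMD7, PSMD12 and PSME1. No gene was lowest in one of these libraries and highest in the other (0 of 39). Both libraries were picked by the scatter of these genes. The same count was not made over all tested genes, so the pattern cannot be called particular to proteasome genes. Over all tested genes, male gel 2 also deviated most from its group mean, with an SD of 0.63. Female plastic 4 did not stand apart there: its SD was 0.425, against 0.445 for female plastic 1 of the same group.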
